A study of Mus musculus and Mus musculus
Rattus norvegicus with 30 samples.

Results

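The genes described here were 10 members of the Hippo pathway and its Tead transcription factors, taken by their symbols from the RNA tables: Tead1, Tead2, Tead4, Yap1, Wwtr1, Lats1, Lats2, Amotl2, Ctgf and Cyr61. All 10 were found among 19919 genes of the mouse embryonic stem cell (mESC) tables, among 34923 genes counted on the mouse genome and among 25245 genes counted on the rat genome in mouse-rat fusion cells. In the Hippo pathway a kinase cascade ends at Lats1 and Lats2, which phosphorylate the co-activators Yap1 and Wwtr1 (also called Taz) and so keep them out of the nucleus. When the kinases are quiet, Yap1 and Wwtr1 enter the nucleus, bind the Tead factors and turn on genes such as Ctgf and Cyr61. In the early mouse embryo Tead4 together with Yap1 is known to act upstream of Cdx2, the homeobox factor of the outer, trophoblast-forming cells.

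The study put Cdx2 into stem cells to ask whether the mouse and the rat protein act alike, and the Hippo genes were read here in those samples. The mESCs labelled WT were compared with lines that carried a lentiviral, Flag-tagged, doxycycline-inducible (Tet-On) Cdx2, either mouse Cdx2 (labelled mCDX2) or rat Cdx2 (labelled rCDX2), both after 48 h of doxycycline. Another 7 lines carried rat Cdx2 in which 3 mouse-specific amino acid changes of the DNA binding domain were placed alone or in combination, labelled R1, R2, R3, R12, R13, R23 and R123. The study describes its mCDX2 comparison as one of cells with and without doxycycline. How long doxycycline was given to the 7 mutants, whether each line was a single clone, and whether the cells labelled WT carried the vector were not given in the sources used here. All mESCs were grown under 2i/LIF conditions before induction. Each of the 10 mESC groups had 2 RNA libraries, so there were 20. The fusion cells (RMES) join haploid mouse and haploid rat stem cells, so that both genomes share a nucleus. They gave 2 RNA libraries labelled WT, 1 mCDX2 and 1 rCDX2 library, each counted once on the mouse and once on the rat genome. The mCDX2 and rCDX2 RMES cells, for RNA and for ChIP, also had 48 h of doxycycline. There was 1 ATAC-seq library (open chromatin) each for WT and mCDX2 mESCs, and 1 Cdx2 ChIP-seq library, made with anti-Flag, for each protein in mESCs and in RMES cells. Nothing said that libraries of a group came from separate cultures, so their spread may be technical.

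The 2 WT mESC libraries held 74960057 to 94695650 reads counted on genes, against 12698443 to 24315929 in the 18 induced libraries. Cdx2 was at 1.36 and 1.21 CPM (read counts scaled to a common library size) in WT, at 97.9 and 127 CPM in mCDX2, at 70.4 and 67.0 CPM in rCDX2 and between 37.2 and 147 CPM in the mutants, so the labels held for the induced gene. Marker lists were summed as CPM of the total counts, without the TMM scaling used for single genes. The summed level of 9 stem cell markers was 5042 to 5073 CPM in WT, 3532 to 4185 CPM in mCDX2 and rCDX2, and 4052 to 5537 CPM in the mutants. The summed level of 8 trophoblast markers (without Cdx2) was 145 to 146, 622 to 870 and 167 to 290 CPM in the same order. Single markers did not all follow these sums. Krt18 was at 8.44 to 9.11 CPM in WT and 242 to 366 in mCDX2 and rCDX2. Eomes alone was lower there than in WT (3.29 to 5.33 against 7.35 to 7.92 CPM). Among the stem cell markers Nanog (756 to 993 against 501 to 508 CPM), Klf4 and Tfcp2l1 were higher there, and the rest lower. In the mutants Tfap2c (80.0 to 91.1 against 113 to 114 CPM) and Eomes were below WT. Of 8 fibroblast genes, as feeder cells would carry, 7 were in the table and summed to 31.8 to 32.5 CPM in WT, 3.89 to 4.73 CPM in mCDX2 and rCDX2 (with Dcn and Lum at 0) and 1.25 to 3.94 CPM in the mutants. The part of these other cells in any difference from WT was not tested. In bulk libraries fewer cells of a type and less RNA per cell cannot be told apart.

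The members are spread over 6 mouse chromosomes, with coordinates given for mm10 and the strand in brackets. The Tead factors lie with Tead1 at chr7:112679318-112906807 (+), Tead2 at chr7:45215753-45233644 (+) and Tead4 at chr6:128224288-128300823 (-). The co-activators lie with Yap1 at chr9:7931999-8004596 (-) and Wwtr1 at chr3:57455649-57575910 (-). The inhibitors lie with Lats1 at chr10:7681214-7716460 (+), Lats2 at chr14:57689662-57758388 (-) and Amotl2 at chr9:102716672-102733418 (+). The targets lie with Ctgf at chr10:24595442-24598683 (+) (now named Ccn2) and Cyr61 at chr3:145646976-145649981 (-) (now named Ccn1).

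Here 4 stretches of the mouse genome (build mm10) are shown because Cdx2 was bound there near members: the strongest peaks near Wwtr1, Ctgf and Tead4, and the Tead1 peak that lay in chromatin that opened. Capitals mark TTTATNG, the core of the Cdx homeobox site, and CATTCC, the core of the Tead site, each on either strand (CNATAAA and GGAATG on the other strand). The central 240 bases of each peak are given, forward strand.
Wwtr1, intergenic, chr3:57585017-57585256: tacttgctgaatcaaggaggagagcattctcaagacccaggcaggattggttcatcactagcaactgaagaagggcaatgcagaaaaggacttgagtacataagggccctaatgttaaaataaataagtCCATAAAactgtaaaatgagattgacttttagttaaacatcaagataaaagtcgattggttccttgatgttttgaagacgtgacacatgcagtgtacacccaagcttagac
Ctgf, intergenic, chr10:24603805-24604044: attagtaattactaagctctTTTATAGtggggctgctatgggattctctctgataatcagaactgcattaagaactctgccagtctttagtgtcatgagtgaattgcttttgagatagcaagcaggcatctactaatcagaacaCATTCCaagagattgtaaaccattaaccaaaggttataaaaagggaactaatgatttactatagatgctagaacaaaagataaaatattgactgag
Tead4, intergenic, chr6:128308461-128308700: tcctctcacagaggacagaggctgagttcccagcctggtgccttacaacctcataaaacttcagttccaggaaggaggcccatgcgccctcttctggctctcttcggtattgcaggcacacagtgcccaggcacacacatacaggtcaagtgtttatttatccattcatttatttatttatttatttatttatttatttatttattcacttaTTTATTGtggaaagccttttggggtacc
Tead1, intron of Tead1, chr7:112705857-112706096: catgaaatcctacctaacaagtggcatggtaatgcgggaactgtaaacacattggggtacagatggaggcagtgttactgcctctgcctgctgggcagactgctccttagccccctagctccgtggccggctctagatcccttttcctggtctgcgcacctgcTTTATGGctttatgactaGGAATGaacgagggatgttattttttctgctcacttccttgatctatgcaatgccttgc

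The next 4 stretches are promoters, 250 bases before to 50 bases after the start of transcription in the direction of the gene (RefSeq, GRCm38.p6). They are shown because members with large changes, and Yap1, held the Tead core there.
Cyr61, chr3:145649936-145650235 (-): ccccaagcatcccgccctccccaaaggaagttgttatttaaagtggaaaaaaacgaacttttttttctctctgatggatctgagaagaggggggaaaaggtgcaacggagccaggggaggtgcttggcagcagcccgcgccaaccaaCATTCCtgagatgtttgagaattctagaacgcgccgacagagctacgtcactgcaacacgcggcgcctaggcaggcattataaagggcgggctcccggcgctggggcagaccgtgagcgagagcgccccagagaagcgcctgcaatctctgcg
Amotl2, chr9:102717554-102717853 (+): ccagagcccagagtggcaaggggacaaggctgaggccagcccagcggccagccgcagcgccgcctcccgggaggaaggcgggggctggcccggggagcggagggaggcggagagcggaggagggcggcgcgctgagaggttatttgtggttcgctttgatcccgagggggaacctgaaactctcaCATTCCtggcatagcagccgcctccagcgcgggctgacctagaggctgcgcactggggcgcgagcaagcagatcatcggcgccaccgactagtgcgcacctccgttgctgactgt
Lats2, chr14:57746074-57746373 (-): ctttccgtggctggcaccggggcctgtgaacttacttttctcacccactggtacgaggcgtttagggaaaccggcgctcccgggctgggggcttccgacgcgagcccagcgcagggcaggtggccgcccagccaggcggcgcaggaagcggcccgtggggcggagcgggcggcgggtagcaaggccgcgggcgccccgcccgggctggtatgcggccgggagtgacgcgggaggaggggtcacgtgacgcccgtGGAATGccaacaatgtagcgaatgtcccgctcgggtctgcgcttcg
Yap1, chr9:8004547-8004846 (-): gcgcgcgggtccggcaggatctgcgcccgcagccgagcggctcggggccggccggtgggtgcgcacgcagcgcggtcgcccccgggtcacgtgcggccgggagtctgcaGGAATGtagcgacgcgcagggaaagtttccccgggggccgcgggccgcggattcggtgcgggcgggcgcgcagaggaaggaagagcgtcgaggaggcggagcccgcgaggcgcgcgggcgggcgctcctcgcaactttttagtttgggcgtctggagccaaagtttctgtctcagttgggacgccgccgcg
Promoter entries were found for 7 of the members, 9 in all. CATTCC stood in 6 of the 9, in 5 genes (the 4 above and Wwtr1), against 14.7% of all 32851 promoters of the same length. Both Wwtr1 entries overlap and hold the same site. Lats2 had another entry, chr14:57734369-57734668, that held neither core. TTTATNG stood in 0 of the 9, against 10.9% of all promoters. A match of letters is not evidence of a bound site, and so short a window says nothing of the rest of the gene.

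In WT mESCs, with CPM divided by the length of each gene's exons, Tead2 (29.1 CPM per kb) and the co-activator Yap1 (27.1) were highest, followed by Amotl2 (19.6), Tead1 (16.1), Ctgf (15.9), Cyr61 (14.4), Tead4 (9.71), Wwtr1 (8.08), Lats1 (4.63) and Lats2 (1.66). Of the neighbours in this order, only the library values of Tead1 and Ctgf overlapped. In mCDX2 cells the order had changed: Cyr61 came first at 41.3 CPM per kb, then Amotl2 (37.1), Tead1 (30.4), Wwtr1 (24.9), Yap1 (24.4), Tead2 (22.0), Ctgf (16.2), Tead4 (10.8), Lats1 (6.86) and Lats2 (3.46).

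Induction of mouse Cdx2 raised Wwtr1, Cyr61 and Lats2 more than 2-fold over WT in mESCs. These were 3 of the 10 members, where 18.4% of the 16000 genes tested rose and 15% fell by that rule, a Benjamini-Hochberg adjusted p under 0.05 in edgeR's quasi-likelihood test and a change over 2-fold. Without the fold threshold 6 members rose and 2 fell, where 5436 of the 16000 genes rose and 5722 fell. The median log2 fold change of the members was 0.74, against -0.03 over all genes. With rat Cdx2, compared with the same WT libraries, Wwtr1, Cyr61, Lats2 and Amotl2 passed both thresholds, 4 of 10, where 19% of genes rose and 15.4% fell. No member fell by 2-fold with either protein.

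The Tead factors are the DNA-binding partners of Yap1 and Wwtr1. Of the 3 Tead members, Tead1 moved most against WT with either protein. Its values were 214 and 224 CPM in the WT libraries, 375 and 448 in mCDX2, and 360 and 439 in rCDX2. The 7 mutants ran from 347 to 373 CPM with a median of 364. All 18 induced libraries were above both WT libraries, and the rise with mCDX2 was 0.91 on the log2 scale (SE 0.091, adjusted p = 1.9e-07), under the 2-fold mark. Without the first mCDX2 library the Tead1 value was 1.03 and passed it. How many of all genes have their induced libraries all on one side of WT is not given here, for Tead1 or the members below.

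Tead2 was at 139 and 140 CPM in WT, 120 and 90.4 in mCDX2, 123.5 and 90.8 in rCDX2, and 88.7 to 128 (median 108) in the mutants. Every induced library was below both WT libraries, and in mCDX2 and rCDX2 alike the second library was lower than the first. The fall was 0.40 (SE 0.13) with mCDX2, at an adjusted p of 0.0092. Tead4, the family member needed for the trophectoderm, stood at 35.3 and 34.5 CPM in WT, 38.6 and 38.9 in mCDX2 and 38.0 and 43.3 in rCDX2, with the mutants at 37.1 to 52.3 (median 46.5). The induced libraries were all above WT by a small margin, which for mCDX2 missed the test (0.15, SE 0.078, adjusted p = 0.099) and for rCDX2 met it (0.21, adjusted p = 0.022).

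The co-activators Yap1 and Wwtr1 had different values after induction. Yap1 was at 249 and 251 CPM in WT, 218 and 231 in mCDX2, 232 and 227 in rCDX2, and 185 to 216 (median 196) in the mutants. All induced libraries were lower than WT, by 0.15 (SE 0.056, adjusted p = 0.022) with mCDX2 and by 0.13 with rCDX2, which did not pass (adjusted p = 0.056). Wwtr1 was at 38.3 and 39.0 CPM in WT, 108 and 130 in mCDX2, 122 and 145 in rCDX2, and 79.0 to 104 (median 92.6) in the mutants. Its 3 sets of libraries did not overlap, with WT lowest, the mutants between and both intact proteins highest. Wwtr1 rose 3.08-fold with mCDX2 (log2 1.62, SE 0.093, adjusted p = 2.8e-10) and 3.46-fold with rCDX2 (log2 1.79, SE 0.093, adjusted p = 7.9e-11).

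The Lats kinases restrain the co-activators. Lats1 was at 33.1 and 34.5 CPM in WT, 47.5 and 52.6 in mCDX2, 49.7 and 58.8 in rCDX2, and 41.5 to 51.6 (median 47.3) in the mutants. All induced libraries were higher than WT, by 0.56 (SE 0.10, adjusted p = 0.00012) with mCDX2. Lats2, itself known as a target of Yap1 and the Tead factors, was at 11.5 and 10.8 CPM in WT, 21.2 and 25.3 in mCDX2, and 22.7 and 27.9 in rCDX2. The mutants ran from 7.29 to 17.4 CPM (median 11.02), on both sides of WT and below both intact proteins. The rise of Lats2 was 1.05 with mCDX2 (SE 0.14, adjusted p = 5.7e-06) and 1.17 with rCDX2, but the mCDX2 value was 0.92, under 2-fold, without the second mCDX2 library.

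Amotl2, an angiomotin family protein that binds Yap1 at cell junctions, was at 122.8 and 120.0 CPM in WT, 224 and 235 in mCDX2, 247 and 273 in rCDX2, and 131 to 162 (median 145) in the mutants. The sets of libraries again did not overlap, and the mutants lay nearer to WT. The log2 rise was 0.92 with mCDX2 (SE 0.070, adjusted p = 8.4e-09) and 1.10 with rCDX2 (SE 0.070, adjusted p = 9.6e-10). With upper quartile scaling the mCDX2 value was 1.003 and passed the fold mark.

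The target genes Cyr61 and Ctgf, which encode secreted matrix proteins of the same family, did not share a pattern. Cyr61 was at 29.6 and 28.7 CPM in WT, 76.7 and 90.3 in mCDX2, 82.3 and 84.1 in rCDX2, and 27.3 to 39.4 (median 32.005) in the mutants. The libraries of the intact proteins lay above all others, and the mutants overlapped WT. The rise of Cyr61 was 2.86-fold with mCDX2 (log2 1.52, SE 0.082, adjusted p = 1.4e-10) and 2.85-fold with rCDX2. Ctgf was at 46.3 and 44.6 CPM in WT, 44.8 and 47.9 in mCDX2, 47.7 and 52.2 in rCDX2, and 30.2 to 44.1 (median 37.3) in the mutants. The intact proteins overlapped WT (0.03 for mCDX2, SE 0.080, adjusted p = 0.77), and every mutant library was below every other library.

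**Figure D1:**
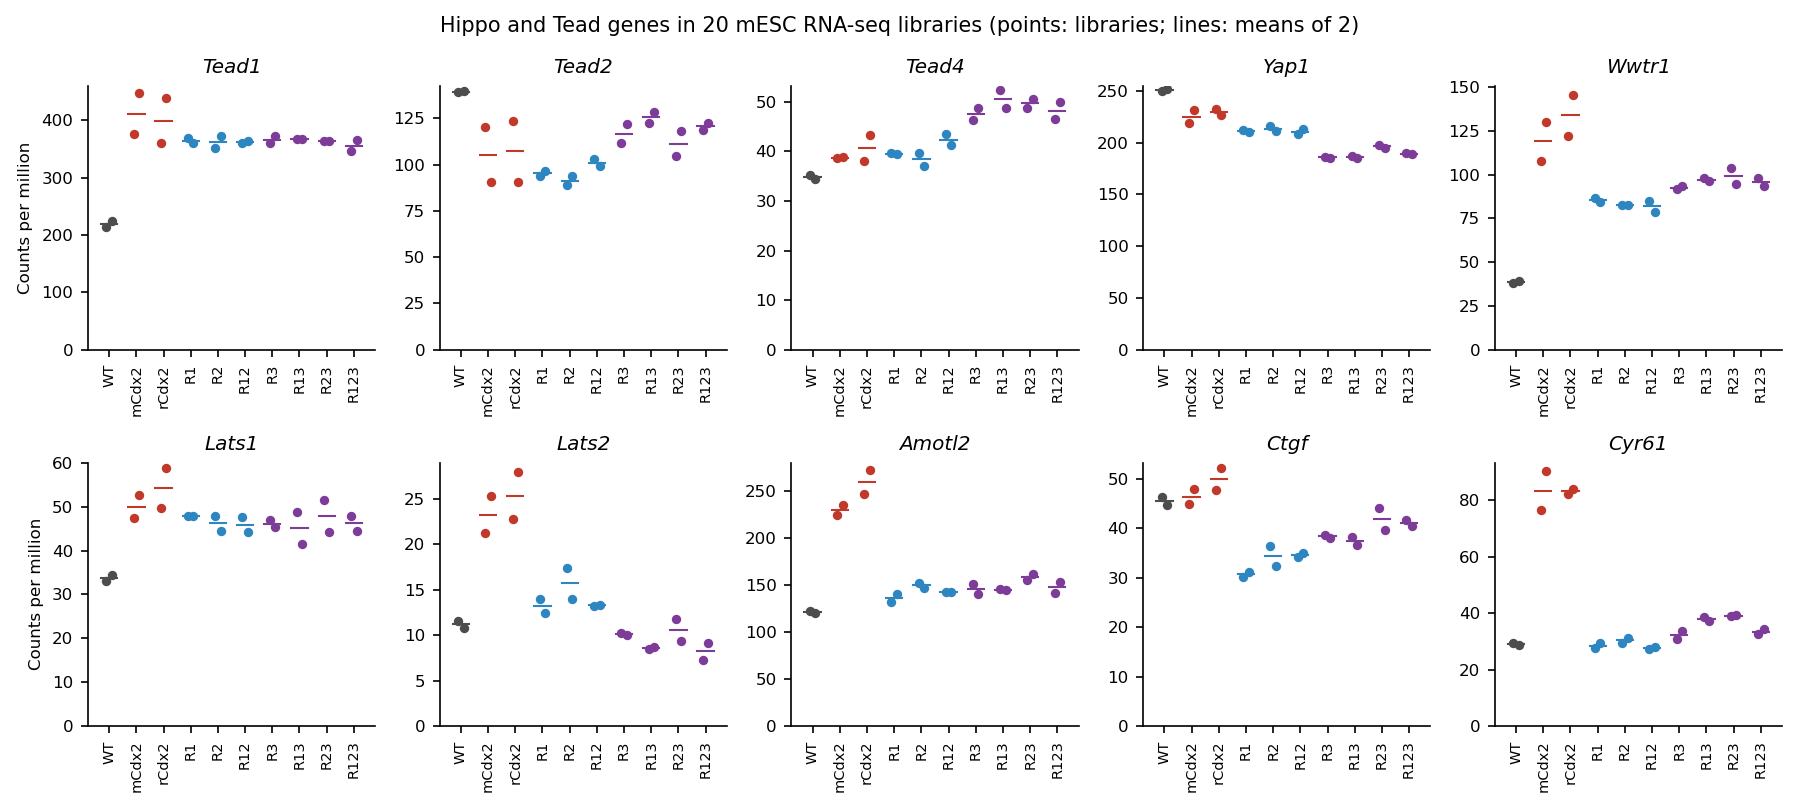
Level of each member in the 20 mESC RNA libraries, in CPM (vertical axis), by construct (horizontal axis). Each point is a library. Wwtr1, Amotl2 and Cyr61 are highest in mCDX2 and rCDX2 (Cyr61 76.7 to 90.3 CPM, against 27.3 to 39.4 in the mutants), while Yap1 is highest in WT.

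Mouse and rat Cdx2 were compared directly. None of the members differed between mCDX2 and rCDX2 by edgeR's quasi-likelihood test, where 0.0187% of genes (3 of 16000) did at an adjusted p under 0.05 and 857 at an unadjusted p under 0.05. DESeq2 gave 21 genes and no member. The differences, mCDX2 minus rCDX2, ran from -0.18 (Amotl2) to 0.04 (Tead1) on the log2 scale. The 95% intervals of the 10 members reached from -0.40 at the lowest (Lats2) to 0.22 at the highest (Tead2), so a difference of 2-fold lay outside all of them.

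Taken as the mean of the 9 constructs against WT, Wwtr1 alone passed 2-fold (log2 1.33, SE 0.075), 1 of 10 members where 13.2% of genes rose and 13.5% fell. In all 7 mutants Wwtr1 was the only member to pass both thresholds against WT, with log2 values from 1.08 (R12) to 1.36 (R23). In these comparisons 1615 (R1) to 2241 (R123) of 16000 genes rose past both thresholds, and 2053 (R2) to 2385 (R123) fell. The 9 constructs differed among themselves in 7 members, Cyr61, Amotl2, Lats2, Ctgf, Wwtr1, Tead4 and Yap1, where 56.9% of all genes differed by the joint test. Tead1 (adjusted p = 0.39), Lats1 (0.40) and Tead2 (0.060) did not pass. The call on Tead2 was made with DESeq2 (adjusted p = 0.026) and without the first rCDX2 library (0.0081).

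Each mutant was also set against the same WT libraries, so the 7 comparisons share them. Tead1 was the steadiest member, with log2 values from 0.70 (R123) to 0.75 (R3 and R13). Lats1 lay between 0.42 (R13) and 0.50 (R1 and R23), and both genes passed the adjusted p in all 7 mutants. Over all genes 9728 (R1) to 10682 (R123) of 16000 passed it, so passing is not particular to the members. Lats2 differed in sign: it was at 0.48 in R2 (adjusted p = 0.0092), at -0.38 in R13 (0.035) and at -0.44 in R123 (0.018), and did not pass in the other 4. Cyr61 passed in R23 (0.43), R13 (0.38) and R123 (0.20), all carrying change 3, while R1 (-0.03), R2 (0.06), R12 (-0.08) and R3 (0.15) did not pass. Amotl2 ran from 0.16 in R1, which missed the test (adjusted p = 0.053), to 0.39 in R23. Ctgf was lowest in R1 (-0.57, adjusted p = 2.0e-05) and nearest to WT in R23 (-0.12, adjusted p = 0.19). Yap1 was lower than WT in every mutant, from -0.23 (R2) to -0.43 (R3 and R13).

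The mutants were then set against the intact proteins, a comparison added after the values had been seen. Of the members 1 was higher and 8 lower in the 7 mutants, where 30.6% of genes were higher and 33.4% lower. The largest falls were in Cyr61 (2.56-fold lower, log2 -1.36, SE 0.044, adjusted p = 2.3e-13), Lats2 (2.18-fold lower, log2 -1.12, SE 0.080) and Amotl2 (1.67-fold lower, log2 -0.74, SE 0.038). Wwtr1 (-0.48), Ctgf (-0.39), Yap1 (-0.19), Lats1 (-0.16) and Tead1 (-0.16) were lower by less, and Tead4 was higher by 0.18. Without the second rCDX2 library Lats1 (-0.09) and Tead1 (-0.08) lost the call, which left 7 members. Amotl2, Ctgf, Cyr61, Lats2, Wwtr1 and Yap1 had all 14 mutant libraries below all 4 libraries of the intact proteins. The share of all genes that separate in this way is not given here, so this is not read as particular to the members. The sum of the trophoblast markers given above was also lower in the mutants, at 167 to 290 CPM against 622 to 870, though Eomes, Elf5 and Hand1 overlapped. The part of these markers in the differences was not tested. R123 carries all 3 of the changes that mouse Cdx2 has in this domain. For the genes with the largest falls, its means were 33.5 (Cyr61), 8.21 (Lats2) and 148 CPM (Amotl2). In mCDX2 they were 83.5, 23.2 and 229 CPM. Any difference in the time of induction or in the batch goes with the label of the mutant lines, and its part was not tested.

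**Figure D2:**
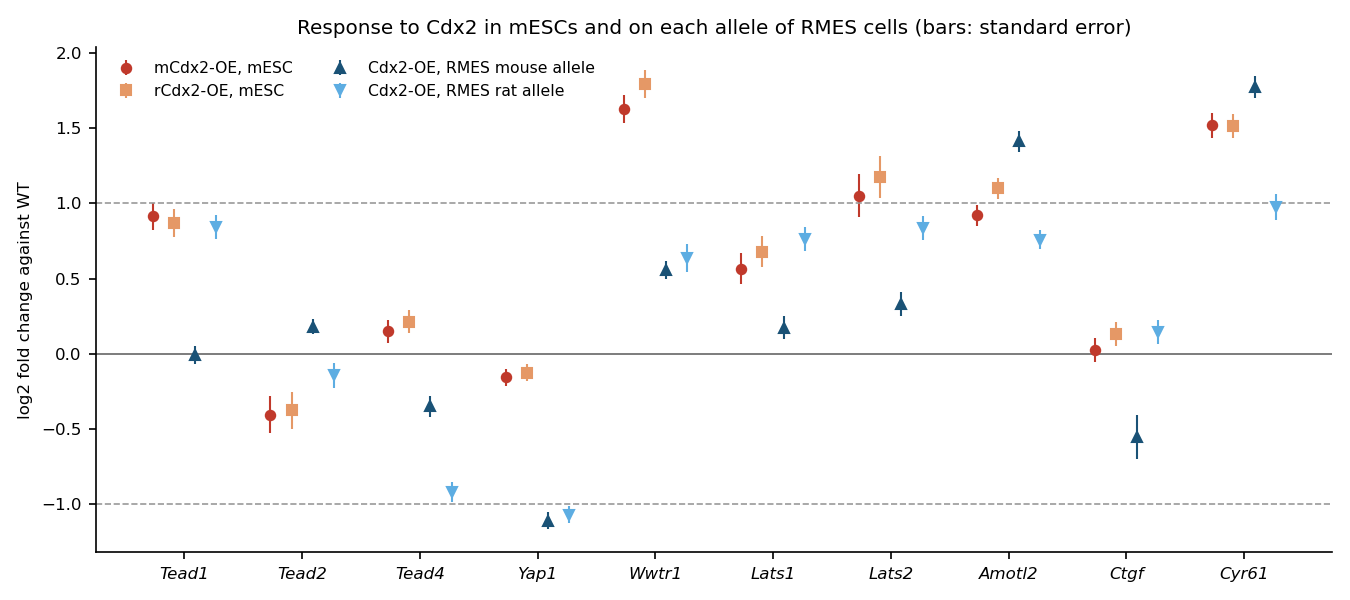
Log2 fold change of each member with its standard error (bars), in mESCs and on the 2 alleles of RMES cells, with dashed lines at 2-fold. Wwtr1 and Cyr61 lie past 2-fold with both proteins in mESCs, and Yap1 lies past -1 on both alleles in RMES cells.

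The 3 amino acid changes were separated in an additive model of rCDX2 and its mutants, 16 libraries, in which each change was present in 4 constructs and absent from 4. Changes 1 and 2 gave 0 members and 0% of the 14394 genes tested at an adjusted p under 0.05 (1854 and 1473 genes at an unadjusted p under 0.05). DESeq2 gave 19 and 2 genes for them, and no member. The model takes the changes to add up, which did not hold for Cyr61. Its mean was 83.2 CPM in rCDX2, 28.4 in R1, 30.4 in R2 and 27.7 in R12. Such a gap between rCDX2 and the mutants widens the SE of each term. The absence of calls for changes 1 and 2 therefore does not show that they had no effect. Change 3 was called in 4 members, 2 higher (18.7% of genes) and 2 lower (18.8% of genes). Lats2 was lower with it (-0.82, SE 0.12, adjusted p = 5.6e-05), at 7.29 to 11.8 CPM in the mutants that carry it and 12.4 to 17.4 in those that do not. Yap1 was lower (-0.20, SE 0.037, adjusted p = 0.00057), at 185 to 198 against 208 to 216 CPM. Tead4 was higher (0.28, SE 0.047, adjusted p = 0.00025), at 46.4 to 52.3 against 37.1 to 43.5 CPM, and so was Tead2 (0.26, SE 0.063, adjusted p = 0.0045), at 105 to 128 against 88.7 to 103 CPM. In none of these 4 did the mutants with and without change 3 overlap. Wwtr1 and Ctgf were also higher in all mutants with change 3 than in all without it. The share of all genes that separate in this way is not given here.

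Leaving out rCDX2, so that 14 mutant libraries remained (added after the values had been seen), change 3 was called in 7 members. The share of all genes called in that fit is not given here. Cyr61 (0.30), Ctgf (0.26) and Wwtr1 (0.20) then joined the 4, all higher with change 3, and Lats2 was at -0.64. Cyr61 had been at -0.13 with rCDX2 in the fit. The induced Cdx2 was itself lower with change 3 (-0.74, SE 0.26, adjusted p = 0.036). Among the first libraries of the mutants Cdx2 was at 61.9 to 94.4 CPM with change 3 and 145 to 147 without it, and among the second libraries at 37.2 to 44.3 and 60.6 to 68.8 CPM. The change and the level of Cdx2 cannot be told apart here.

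In RMES cells the libraries labelled WT already held Cdx2 reads, 129 and 127 CPM on the mouse allele and 453 and 440 CPM on the rat allele. The induced protein showed on the allele of its species, with mouse Cdx2 at 968 CPM in the mCDX2 library and 4.45 in the rCDX2 library, and rat Cdx2 at 47.2 and 880 CPM. The mitochondrial share also differed: 2.32% and 2.65% of mouse-counted reads in the WT libraries and 0.0313% and 0.0259% in the induced ones, against 0.00592% and 0.00775% and then 14.3% and 13.9% of rat-counted reads. The trophoblast markers summed to 143 to 150 CPM in WT and 1034 to 1216 in induced cells on the mouse allele, and to 282 to 299 and 1051 to 1190 on the rat allele. The stem cell markers went from 6395 to 6457 CPM down to 3287 to 3335 on the mouse allele, and for the 7 in the rat table from 3882 to 3930 down to 1594 to 1656. The fibroblast genes were at 19.3 to 23.5 and then 9.12 to 12.6 CPM on the mouse allele, and at 19.1 to 24.8 and then 25.1 to 32.5 on the rat allele. The part of these differences in the values that follow was not tested. The mCDX2 and rCDX2 libraries were taken as replicates of induced cells, as in the study. The tables held 36166038 to 41418817 (mouse) and 29453412 to 35249756 (rat) counts per library. Levels are not compared between alleles, since the exon lengths annotated for them differ (Tead1, 13570 bases in mouse and 1824 in rat).

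Cyr61, Amotl2 and Yap1 changed most on the mouse allele, 2 higher and 1 lower of 10 members, where 28.3% of the 16887 genes tested rose and 16.1% fell past 2-fold. Cyr61 was at 17.3 and 17.1 CPM in the labelled WT libraries, 57.1 in mCDX2 and 60.2 in rCDX2, a rise of 1.77 (SE 0.074, adjusted p = 2.8e-10). Amotl2 was at 75.1 and 72.0, then 181 and 210 CPM (1.41, SE 0.070, adjusted p = 1.4e-09). Yap1 was at 352 and 352, then 167 and 160 CPM, a fall of 1.11 (SE 0.058, adjusted p = 2.2e-09). In all 3 genes both induced libraries lay on one side of both WT libraries, far outside their spread. The share of all genes that separate in this way on the mouse allele is not given here. With upper quartile scaling, which moved the median of all genes from 0.08 to 0.29, the Yap1 value was -0.90 and fell short of 2-fold.

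Smaller changes on the mouse allele passed the adjusted p in 6 further members, where 13823 of the 16887 genes tested passed it. Wwtr1 was at 78.8 and 79.0 CPM, then 112 and 120 (0.56), and Lats2 at 24.9 and 26.1, then 32.5 and 31.7 (0.33). Tead4 fell from 42.3 and 44.5 to 33.8 and 34.5 CPM (-0.35). Tead2 was at 112 and 111, then 124 and 128 CPM (0.18), and Lats1 at 36.4 and 41.2, then 43.4 and 44.2 (0.17, adjusted p = 0.048). Ctgf was at 29.9 and 30.3 CPM in the WT libraries, 24.8 in mCDX2 and 16.1 in rCDX2 (-0.55, SE 0.15), so the induced pair were further apart than the fall of the first of them. Tead1 was at 363 and 387, then 364 and 380 CPM, with overlapping values (-0.01, SE 0.059, adjusted p = 0.89).

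On the rat allele Yap1 alone passed both thresholds, 1 lower of 10 members and none higher, where 28.3% of the 14627 genes tested rose and 14.2% fell. Rat Yap1 was at 178 and 187 CPM in the WT libraries and 88.1 and 86.4 in the induced ones, a fall of 1.07 (SE 0.058, adjusted p = 1.8e-10). The upper quartile scaling gave -0.87, with the median of all genes moved from 0.07 to 0.27, and put rat Cyr61 (1.17), Tead1 (1.04) and Lats2 (1.03) past 2-fold. Rat Cyr61 was at 41.4 and 36.8 CPM, then 70.4 and 83.0, a rise of 0.97 (SE 0.085, adjusted p = 3.8e-08), which went past 2-fold when the first WT library or the mCDX2 library was left out (at most 1.09). Rat Tead4 was at 71.8 and 72.9 CPM, then 37.3 and 39.2, a fall of 0.92 (SE 0.067, adjusted p = 4.3e-09). The labelled WT and induced values did not overlap in Yap1, Cyr61 or Tead4. The share of all genes without overlap on the rat allele is not given here, so this is not read as particular to the members.

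Rat Tead1 was at 52.3 and 56.4 CPM, then 89.6 and 105 (0.84, SE 0.077), where the mouse allele was at -0.01, or at 0.20 with upper quartile scaling (adjusted p = 0.0086). Rat Lats2 was at 26.1 and 29.2, then 47.8 and 51.0 CPM (0.84), and Lats1 at 28.2 and 30.5, then 47.0 and 52.7 (0.76). Amotl2 was at 125 and 118, then 196 and 214 CPM (0.76), and Wwtr1 at 17.9 and 18.3, then 26.6 and 29.7 (0.63). These 5 rose at an adjusted p under 0.05 in edgeR, where 6361 of the 14627 genes tested rose at that threshold. Their values did not overlap either, a trait whose share over all genes is not given here. Ctgf (29.2 and 28.9, then 31.4 and 32.9 CPM) and Tead2 (73.9 and 63.2, then 58.1 and 65.9 CPM) did not pass (adjusted p = 0.10 and 0.12). The values of Tead2 overlapped, and its difference of -0.14 was 0.06 with upper quartile scaling.

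The responses of the 2 alleles were compared in a model of both tables with the library as a block, and 8 of 10 members differed, where 62.1% of the 13605 genes with a symbol in both tables did. The response was more positive on the rat allele for Tead1 (0.87, SE 0.058, adjusted p = 6.3e-12), Ctgf (0.74), Lats1 (0.61) and Lats2 (0.53). It was more positive on the mouse allele for Cyr61 (-0.77, SE 0.085, adjusted p = 3.5e-08), Amotl2 (-0.63), Tead4 (-0.55) and Tead2 (-0.30). The co-activators did not pass this test, at 0.10 for Wwtr1 (95% interval -0.04 to 0.24, adjusted p = 0.23) and 0.07 for Yap1 (-0.04 to 0.17, adjusted p = 0.28). Without the mCDX2 library Yap1 was at 0.10 with an adjusted p of 0.044.

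**Figure D3:**
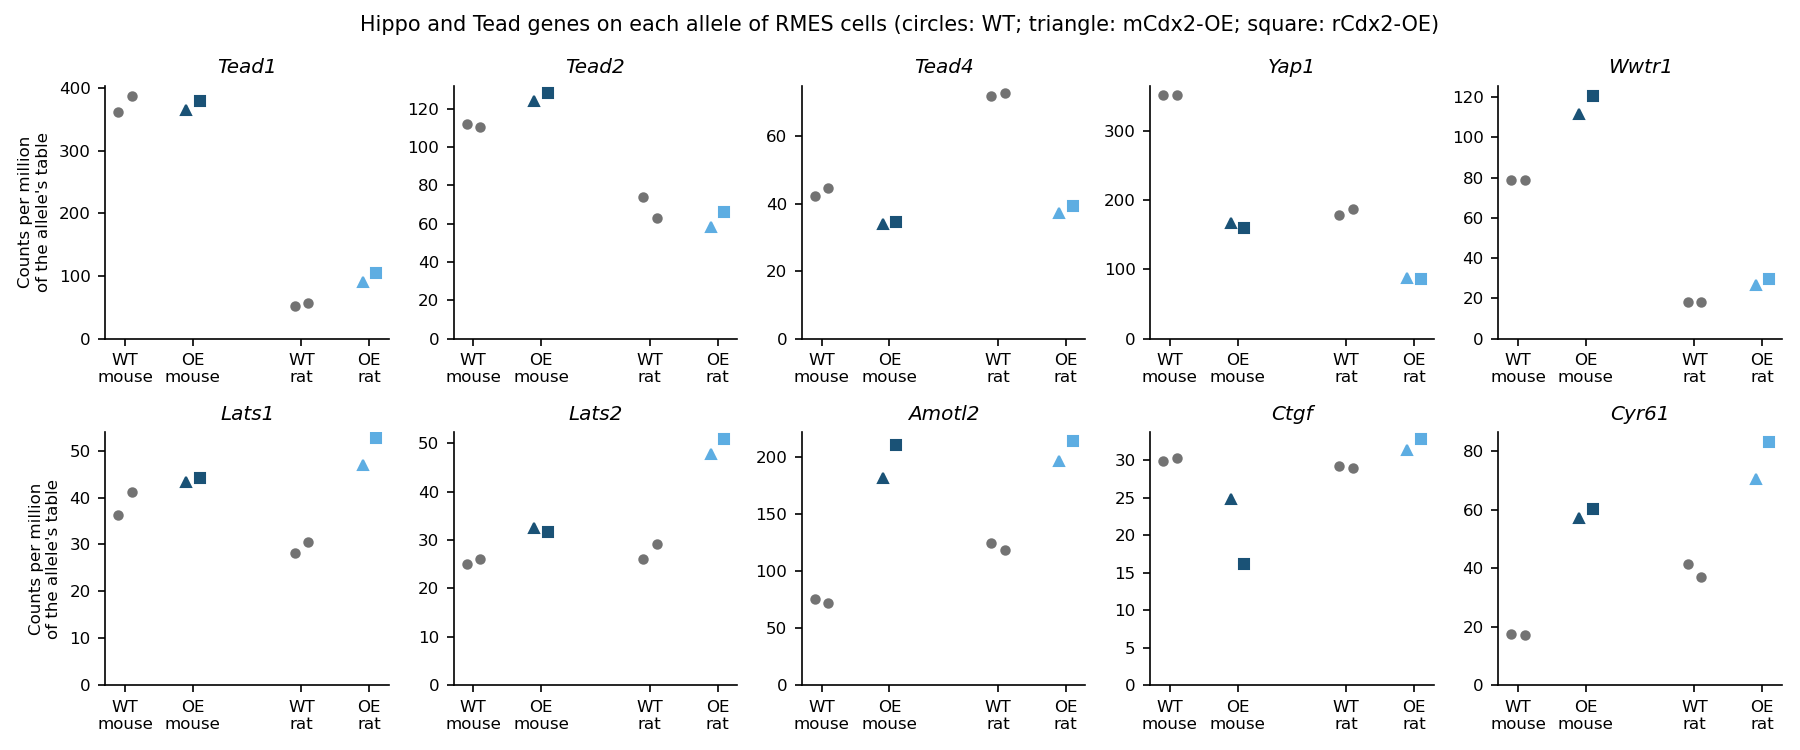
Level of each member in the 4 RMES RNA libraries, in CPM, on the mouse and the rat allele, with each point a library. Yap1 is lower in the induced libraries on both alleles (352 to 160 and 187 to 86.4 CPM at the extremes), and rat Tead1 goes from 52.3 and 56.4 to 89.6 and 105 CPM.

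Other genes of the pathway were counted from a list of 30 regulators outside the members, 29 of them tested in mESCs. With mCDX2, 8 rose and 0 fell past 2-fold (median 0.56, against -0.03 over all genes), where 18.4% of all genes rose and 15% fell. With rCDX2 9 rose and 0 fell, where 19% and 15.4% of all genes did. Among those called with a mean of at least 50 counts, the largest changes with mCDX2 were in Vgll1 (4.83, SE 0.29) and Vgll3 (2.23, SE 0.14), genes of co-factors that bind Tead proteins, followed by Tead3 (1.44, SE 0.14) and another such co-factor, Vgll4 (1.40, SE 0.14). Vgll1 was at 0.160 to 0.510 CPM in WT, 9.20 to 13.5 in mCDX2 and rCDX2, and 1.35 to 5.49 in the mutants. Tead3, the fourth Tead factor, was at 5.13 and 5.39 CPM in WT, 14.9 and 13.5 in mCDX2 and 18.3 and 20.3 in rCDX2, and at 4.77 to 6.87 in the mutants. The mutants overlapped WT. On the mouse allele of RMES cells Tead3 was at 4.01 and 3.85, then 28.5 and 34.2 CPM, and on the rat allele at 22.1 and 22.9, then 110 and 126. In RMES cells 11 regulators rose and 1 fell of 29 on the mouse allele, where 28.3% of all genes rose and 16.1% fell. On the rat allele 10 rose and 0 fell of 27, where 28.3% and 14.2% of all genes did.

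Of 20 genes listed as Yap and Tead targets beside Ctgf and Cyr61, 18 were tested in mESCs. With mCDX2 8 rose and 2 fell past 2-fold (median 0.79), where 18.4% of all genes rose and 15% fell. With rCDX2 7 rose and 2 fell, where 19% and 15.4% of all genes did. F3 (2.58, SE 0.17), which encodes tissue factor, and the kinase gene Nuak2 (2.38, SE 0.12) rose most among those called with a mean of at least 50 counts, while Axl (-2.82, SE 0.29) and Nt5e (-2.22, SE 0.14) fell. In the mutants against the intact proteins 13 of the 18 were lower and 4 higher, where 33.4% of all genes were lower and 30.6% higher. On the RMES alleles 10 rose and 1 fell of 19 tested, for mouse and rat alike, where 28.3% of all genes rose on each allele and 16.1% (mouse) and 14.2% (rat) fell. Nt5e was at -3.06 on the mouse allele, with 2432 and 2646 counts in WT and 363 and 384 in induced libraries. On the rat allele it was at 2.05, but near the floor, with 4 and 5 counts in WT and 28 and 22 in induced libraries.

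The genes with levels most like those of Tead4, Yap1 and Ctgf were named by the Pearson correlation of log2 CPM over the 20 mESC libraries, which share constructs and depth. For Tead4 these were Patl2 (r = 0.945), Cep72 (0.943) and Fxyd6 (0.940). For Yap1 they were Actn4 (0.961), Dnmt3l (0.959) and Cgnl1 (0.955), and for Ctgf they included Cyth3 (0.939) and Trerf1 (0.929). The coefficients are a description of these libraries.

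Chromatin near the members was read from ATAC peaks within 30 kb of the gene start. There were 107 such peaks, and 81 held at least 40 scaled reads in the WT and mCDX2 libraries together. Of these, 4 were more than 2-fold higher in mCDX2 (opened) and 17 more than 2-fold lower (closed), where 13.7% and 20.5% of all 85394 counted peaks did so. Without scaling the libraries to a common total the split was 24 higher and 9 lower. The mCDX2 library held more reads in peaks (8277850, against 6109353 in WT), and the split of all peaks without scaling is not given here. There was 1 library per condition, so no test was made.

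The 4 opened peaks lay at Tead1 (2), Lats2 (1) and Cyr61 (1). The Tead1 start peak held 179 scaled reads in WT and 373 in mCDX2 (log2 1.05), and the second, 26657 bases into the gene and holding the sequence printed above, went from 37.7 to 110 (log2 1.53). The Lats2 peak, chr14:57745073-57746702, lies in an annotated intron 12501 bases from the Lats2 gene start, covers the Lats2 promoter printed above and went from 74.2 to 175 scaled reads (log2 1.22). The Cyr61 peak, chr3:145646045-145646633, lies 3642 bases downstream of the gene start, past the end of the gene, and went from 8.24 to 33.9. The transcripts of all 3 genes were higher in both mCDX2 libraries than in WT.

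The closed peaks were most frequent at Tead4 (5), Tead2 (3), Amotl2 (3) and Ctgf (3), with 1 each at Tead1, Yap1 and Wwtr1. At Tead2, whose transcript fell, an intronic peak 13507 bases from the start went from 237 to 43.5 scaled reads (log2 -2.42). At Yap1 an intronic peak 20747 bases from the start went from 78.9 to 13.9 (log2 -2.42). At Amotl2, whose transcript rose, a peak 26276 bases before the start went from 425 to 118 (log2 -1.84). At the starts of the other genes with a start peak the log2 ratios ran from -0.25 (Tead2) through 0.31 (Ctgf), 0.51 (Yap1), 0.58 (Amotl2), 0.65 (Tead4), 0.68 (Wwtr1) and 0.73 (Lats1) to 0.82 (Cyr61), none past 2-fold.

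Cdx2 ChIP peaks stood in the same window of 8 of the 10 members, where 76.2% of 19705 genes had at least 1. There were 17 such peaks, 3 each at Tead1, Wwtr1, Lats2 and Ctgf, 2 at Yap1 and 1 each at Tead4, Lats1 and Cyr61, with none at Tead2 and Amotl2. The Wwtr1 peak printed above, centred 9226 bases before the gene start, was the strongest with 135 reads in the mCDX2 and 98 in the rCDX2 library. It lay in an ATAC peak that went from 7.06 to 32.2 scaled reads, under the minimum of 40 in total. The Ctgf peak 8482 bases after the start held 118 and 93 reads, and the Ctgf transcript did not pass the test with either intact protein. Another Ctgf peak, 964 bases before its start and in an intron of Gm15270, held 79 and 56. The Tead1 peak in opened chromatin held 55 and 60, and the Tead4 peak 7757 bases before the start held 76 and 67. Amotl2, whose transcript rose with both proteins, had no bound peak within 30 kb in mESCs.

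The bound peaks were compared between the proteins without a test, with 1 library each. The log2 ratio of mCDX2 to rCDX2 scaled reads in the 17 peaks ran from -0.62 to 0.41, and none was past 2-fold, where 0.912% of all 91665 peaks were. In RMES cells 13 Cdx2 peaks lay near 8 of the 10 members, where 65.2% of genes had at least 1, and these included a peak 29728 bases before Amotl2. Of the 17 mESC peaks 11 (64.7%) overlapped an RMES peak, against 64.8% of all peaks. Of the 4 opened ATAC peaks 1 held a Cdx2 peak, and 0 of the 17 closed ones did, against 58.3% and 2.97% over all peaks. TTTATNG stood in 10 of the 17 bound peaks (58.8%, against 63.8% of all) and CATTCC in 5 (29.4%, against 21.3% of all).

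**Figure D4:**
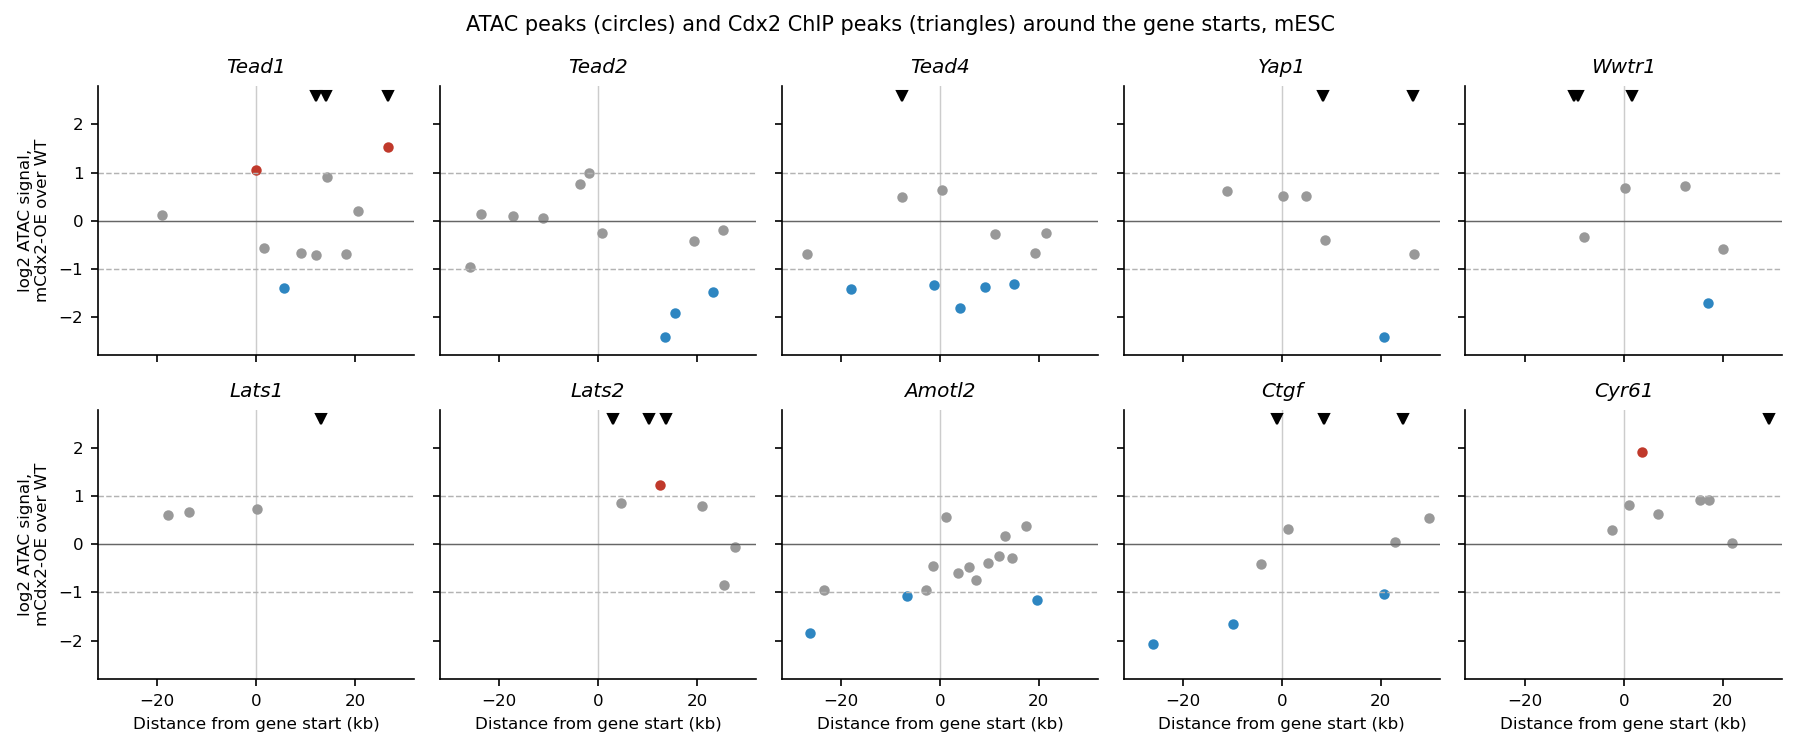
Log2 ratio of scaled ATAC reads, mCDX2 over WT, in the counted peaks near each member (vertical axis) by distance from the gene start in kb (horizontal axis), with Cdx2 ChIP peaks marked. Of the 81 peaks 4 lie above 2-fold and 17 below, and 1 of the 4 holds a bound peak.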

How the data were processed

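RNA tables hold read counts per gene as deposited: the authors aligned reads with STAR 2.7.0d and counted them by gene name on mm10 with strand, and assigned reads of RMES cells to mm10 or rn6. Other tools named in the submitters' processing notes were cutadapt 2.6, Picard 2.6.0, Bowtie2 2.3.4.3 and MACS2. ATAC and ChIP tables hold read counts in peaks that the authors called on pooled libraries, so peaks could not be compared as separate calls. The rat ChIP table was not used here, and 0 columns were of unmapped samples. The ChIP columns of mESCs and RMES cells were taken as mCDX2 and rCDX2 from their abbreviations, which is an inference.

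Counts were tested with edgeR 4.0.16 (quasi-likelihood test, TMM scaling, low counts filtered with filterByExpr) in R 4.3.3, with all 20 mESC libraries in 1 model, so that the groups share an estimate of the spread. The calls need a Benjamini-Hochberg adjusted p under 0.05 over all genes tested and, against WT, a change over 2-fold. The comparisons among induced cells carry no fold threshold. CPM of single genes used TMM-scaled library sizes, and the summed marker lists used total counts. RMES tables were fitted with 4 libraries each, and the allele difference in a model with the library as a block. Peak reads were scaled to the mean library total, 1 was added before the log2 ratio, and no test was made on 1 library per condition. Peaks belong to a gene within 30 kb of its start, where 19705 of 19919 symbols had a position. The alternatives were DESeq2 1.42.0, upper quartile scaling, no filter, a replicate block, single libraries left out, no fold threshold, and other windows, minima and pseudocounts for peaks. No 2 mESC RNA libraries had identical counts, and the other libraries were not compared in this way. The test scripts were checked on simulated counts.

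The main fits did not pair libraries by replicate number. The correlation of same-numbered deviations over 45 pairs of constructs ran from -0.14 to 0.45, with a median of -0.0027. Libraries of the same number may thus share a difference in some constructs. Cdx2 was higher in the first than in the second libraries of the mutants, as given above. Counts with a replicate block are given below. The genes named were all 10 members, Cdx2, from each of 2 pathway lists up to 4 genes past both thresholds with the largest change with mCDX2 and a mean of at least 50 counts, and the 3 genes most correlated with each of Tead4, Yap1 and Ctgf, of which 1 is not reported here. The members and lists were chosen with earlier results of these data known. The comparison of mutants with intact proteins and the fit of 14 libraries were added after the values were seen. Reads matching both genomes equally well in RMES cells could shift counts between the tables. Intervals cover the spread between these libraries only.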

Additional observations from a re-analysis of the deposited data

Results flagged for a closer look

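In RMES cells the response to induction differed between the alleles in 8 members by edgeR's quasi-likelihood test of the difference itself (adjusted p from 6.3e-12 to 0.00016), given as the rat response minus the mouse response on the log2 scale. Tead1 (0.87), Ctgf (0.74), Lats1 (0.61) and Lats2 (0.53) responded more positively on the rat allele. Cyr61 (-0.77), Amotl2 (-0.63), Tead4 (-0.55) and Tead2 (-0.30) responded more positively on the mouse allele. The share of genes that differed in this way was 62.1% of all tested, so these values are not particular to the members.

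For 2 Tead factors every induced library lay on one side of WT in mESCs and on the other side on the mouse allele of RMES cells. Tead2 was lower than WT in the mCDX2 libraries of mESCs and higher in the induced RMES libraries (RMES value 0.18). Tead4 was higher in mESCs and lower in RMES cells (RMES value -0.35), though its small rise with mCDX2 in mESCs missed the test, as given above. The difference between the cell systems was not tested, and the RMES libraries labelled WT already held Cdx2 reads.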

How the results depend on the processing

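Of 652 values of single members recomputed under an alternative, 628 kept their direction and side of the threshold, 11 passed it, 5 no longer did and 8 turned direction. Without the fold threshold, 8 members were called with mCDX2 and 8 with rCDX2, where 11158 and 11294 of 16000 genes were. For the mean of 9 constructs 9 were called, where 11959 of 16000 genes were. On the mouse allele 9 were called (13823 of 16887 genes) and on the rat allele 8 (12069 of 14627 genes). With the 14 mutant libraries, 7 were called for the 3 changes, a fit for which the share of all genes is not given here. Upper quartile scaling gave 3 on the rat allele, where 4611 of 14627 genes rose and 1513 fell past both thresholds. ATAC peaks past 2-fold numbered 33 without scaling and 8 within 10 kb, with no share of all peaks given here. Cdx2 peaks numbered 8 in mESCs and 5 in RMES within 10 kb, 52 and 39 within 100 kb, and 8 and 2 with at least 100 reads. Leaving out single libraries gave 1 to 2 calls on the rat allele (2 without WT replicate 1 or mCDX2 replicate 1), 2 to 4 with mCDX2 (2 without its second and 4 without its first library) and 7 to 9 in mutants against intact proteins.

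The values among these that turned direction were Ctgf with mCDX2 (-0.023 to 0.071 with single libraries left out), Tead2 in mutants against intact proteins (-0.071 to 0.15), Wwtr1 for change 3 (-0.011 to 0.10), Tead1 on the mouse allele (-0.063 to 0.027, and 0.20 with upper quartile scaling) and Tead2 on the rat allele (0.056 with upper quartile scaling). With the 14 mutant libraries Amotl2 (0.056) and Cyr61 (0.30, then called with an adjusted p of 0.00051 in edgeR) turned for change 3. Beside the 652, the same fit turned Wwtr1 (0.012) for change 1, and for change 2 Cyr61 (-0.42 to 0.032), Ctgf (-0.039 to 0.14), Amotl2 (-0.17 to 0.074), Wwtr1 (-0.18 to 0.0062) and Yap1 (-0.0037 to 0.032), none of them called in either fit. The cause was not tested.

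The replicate block left the counts of members at 3 (mCDX2), 4 (rCDX2), 1 (9 constructs), 7 (among constructs), 0 (mCDX2 against rCDX2), 4 (changes) and 9 (mutants against intact), the same as without the block. The shares of all genes called with the block, or with single libraries left out, are not given here. No paired analysis was possible for RMES cells and peaks because the groups compared share fewer than 2 numbers. With 2 libraries a group, or 1 for peaks, small differences could not be resolved.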
